A study of Rattus norvegicus with 11 samples.

Results

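The Cyp3a cytochromes are the genes of the rat whose symbol starts with Cyp3a, of which RefSeq listed 8. Members were chosen by symbol alone, from the platform annotation of the array. The 5 genes proposed were Cyp3a9, Cyp3a2, Cyp3a18, Cyp3a23-3a1 and Cyp3a62. Of these 5, 4 had a probe set with 1 gene symbol, out of 14217 genes measured, and each of the 4 had 1 probe set, out of 31099. The probe sets were 1370387_at for Cyp3a9, 1370593_at for Cyp3a2, 1398307_at for Cyp3a18 and 1387118_at for Cyp3a23-3a1. The expression of Cyp3a62, and of the RefSeq Cyp3a genes outside the 5, was not analysed here. All 4 measured genes passed the filter on dim signals.

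The livers came from 8 Wistar rats given the high dose of mequindox, a quinoxaline N-oxide antibacterial for farm animals, and from 3 control Wistar rats, with 1 Affymetrix array per animal. The high-dosed rats carried the numbers 2, 3, 4, 5, 6, 8, 10 and 11 and the controls the numbers 1, 2 and 9. All were labelled 9 weeks old except high-dosed rat 8, labelled 10 weeks. Dose, route, length of treatment and the sex of the animals are not given in the sources used here, and the study chose the groups for arrays with other measurements of the animals in hand. The comparison asks how the drug changed liver expression of these genes.

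Cyp3a enzymes are heme proteins of the endoplasmic reticulum that oxidise steroids, bile acids and a large share of all drugs, using electrons passed on by cytochrome P450 reductase (Por). The nuclear receptors PXR (Nr1i2) and CAR (Nr1i3) bind DNA with the retinoid X receptor and raise Cyp3a transcription when drugs or bile acids arrive. In rats Cyp3a23-3a1 is the classical gene induced by glucocorticoids and pregnane steroids, Cyp3a2 and Cyp3a18 are known as male-predominant in adult liver, and Cyp3a9 as female-predominant and responsive to estrogen.

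The stretch of promoter in which the PXR element of the inducible genes is known to lie is shown here, because these genes are known for their induction by drugs through PXR. Each sequence runs from 180 to 61 bases before the start of the gene, in the direction of transcription, and comes from RefSeq on build GRCr8. Capitals mark the receptor hexamers AGTTCA and AGGTCA on either strand, where the reverse strand reads TGAACT for the first.
Cyp3a9, chr12:21960221-21960340, minus strand: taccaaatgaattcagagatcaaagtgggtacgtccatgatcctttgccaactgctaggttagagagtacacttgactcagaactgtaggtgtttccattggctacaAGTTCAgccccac
Cyp3a2, chr12:14343918-14344037, minus strand: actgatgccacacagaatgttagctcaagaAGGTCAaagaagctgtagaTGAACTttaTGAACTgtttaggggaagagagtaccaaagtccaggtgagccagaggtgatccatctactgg
Cyp3a18, chr12:13994132-13994251, plus strand: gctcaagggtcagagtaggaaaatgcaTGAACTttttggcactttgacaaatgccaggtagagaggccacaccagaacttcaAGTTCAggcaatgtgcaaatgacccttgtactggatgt
Cyp3a23-3a1, chr12:14398864-14398983, minus strand: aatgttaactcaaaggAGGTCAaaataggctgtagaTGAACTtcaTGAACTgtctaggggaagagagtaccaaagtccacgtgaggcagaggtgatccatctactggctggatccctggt

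Cyp3a2 and Cyp3a23-3a1 each held 2 copies of AGTTCA as a direct repeat with 3 bases between them, read on the reverse strand. The repeat began 131 bases before the start of Cyp3a2 and 144 bases before that of Cyp3a23-3a1. These were the only matches to that repeat in the 250 bases before the start among 27457 promoters searched on both strands (0.007%). The search took only this exact spelling, so the share does not measure how rare PXR elements are. Cyp3a9 held 1 single AGTTCA, 73 bases before its start, and Cyp3a18 held 2 that were not such a repeat, 153 and 98 bases before its start. A single AGTTCA stood in 12.11% of all promoters. No promoter of a member held the same repeat with a spacer of 4 bases. A match is a run of letters and not a measured binding site, and variants of the hexamers were not searched. Over the 250 bases before the start, Cyp3a2 and Cyp3a23-3a1 were 79.2% identical, and the other pairs among the 4 measured genes 53.0% to 58.5%. In the RefSeq gene order 0 other protein-coding genes lay between Cyp3a2 and Cyp3a23-3a1. Whether the probe set of 1 Cyp3a gene also binds transcripts of another was not tested.

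Cyp3a9 was the 1 member that passed the test: it fell in the high-dosed livers to 37.5% of the control mean. Cyp3a2, Cyp3a18 and Cyp3a23-3a1 did not pass, which with 3 controls does not show that they were unchanged. Over all genes tested, 10.6% passed at an adjusted p below 0.05 (1141 of 10714), 7.91% as higher and 2.74% as lower in high-dosed rats. Over all probe sets tested the share was 6.92% (1288 of 18625). The share of genes whose groups did not overlap was 12.1%, and Cyp3a9 was the 1 member among them. The values are MAS5 intensities on a linear scale. Intensities of different probe sets are not compared with each other as levels.

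**Figure D1:**
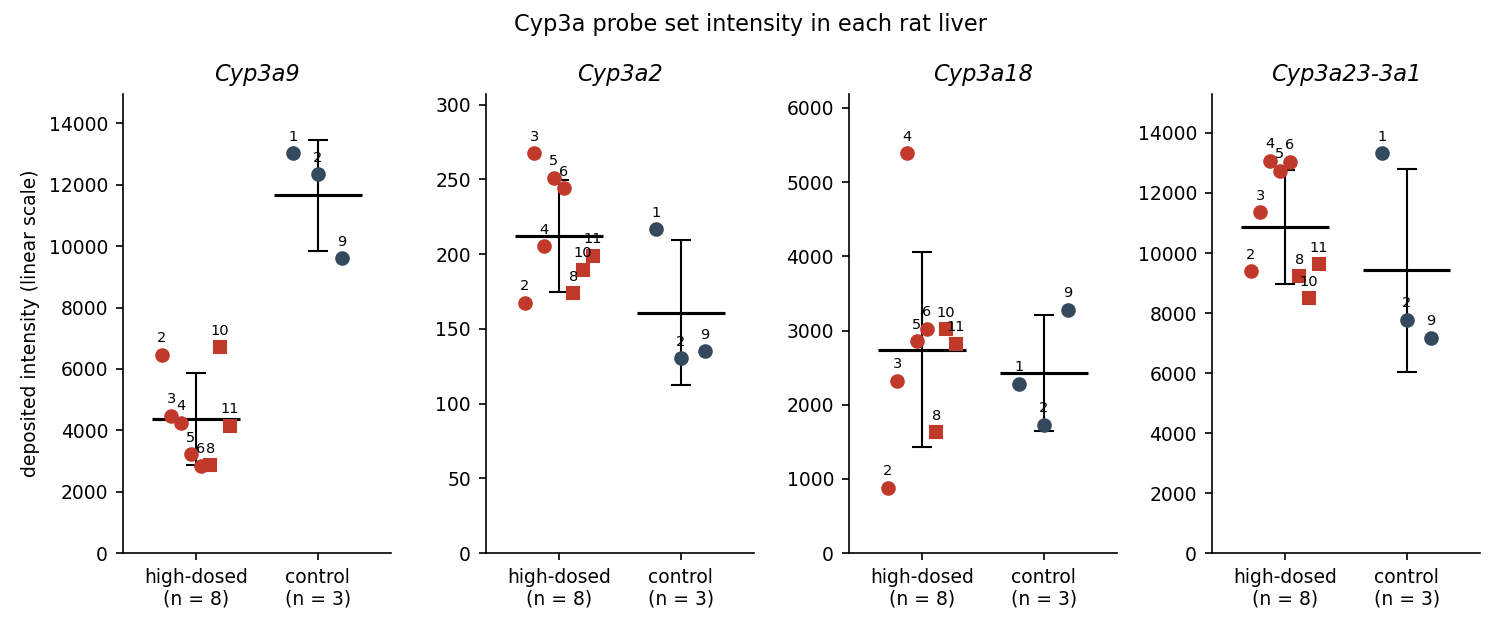
Deposited intensity (vertical axis, linear scale from 0) of the 4 Cyp3a probe sets in each rat, labelled by animal number, with high-dosed rats left and controls right. Lines give the mean and bars 1 SD, and squares mark high-dosed rats 8, 10 and 11. All 8 high-dosed rats lie below all 3 controls for Cyp3a9, and the groups overlap for the other 3 genes.

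Cyp3a9 intensity was 6465, 4479, 4246, 3229, 2849, 2860, 6715 and 4144 in high-dosed rats 2, 3, 4, 5, 6, 8, 10 and 11, and 13022, 12347 and 9609 in controls 1, 2 and 9. Every high-dosed rat was below every control, with high-dosed 2 and 10 nearest to them and high-dosed 6 and 8 lowest. The means were 4374 ± 1505 in high-dosed rats (SD, n = 8) and 11659 ± 1807 in controls (SD, n = 3). The log2 fold change was -1.46 ± 0.25 (SE), a 2.75-fold lower signal, with a 95% interval from -1.99 to -0.93 and a limma adjusted p of 0.00408. It was the 10th largest fall among 10714 genes, and 17 called genes were at least 2-fold lower. Single high-dosed rats ranged from 24.4% to 57.6% of the control mean, so that the highest of them was 2.36 times the lowest. In liver as a whole, fewer cells of a type and less RNA per cell cannot be told apart.

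The fall of Cyp3a9 did not rest on 1 animal. With each array left out in turn its log2 fold change stayed between -1.59 and -1.38, and the highest limma adjusted p, without control 1, was 0.0313. High-dosed rats 8, 10 and 11 stood apart from the others on the first principal component of all arrays, which held 31.2% of the variance. Their Cyp3a9 intensities, 2860 to 6715, covered nearly the same range as the 2849 to 6465 of high-dosed rats 2 to 6. Without those 3 rats the log2 fold change was -1.49 (limma adjusted p = 0.00580). Within numbers 6 and below it was -1.62 (adjusted p = 0.012), and within numbers 8 and above, with 1 control, -1.15 (adjusted p = 0.169).

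Cyp3a23-3a1 intensity was 9385, 11362, 13066, 12741, 13039, 9221, 8490 and 9621 in high-dosed rats 2, 3, 4, 5, 6, 8, 10 and 11, and 13316, 7779 and 7173 in controls 1, 2 and 9. All 8 high-dosed rats lay inside the range of the controls, where control 1 was far above the other two. The means were 10866 ± 1906 in high-dosed rats (SD, n = 8) and 9423 ± 3386 in controls (SD, n = 3). The log2 fold change was 0.24 ± 0.18 (SE), with a 95% interval from -0.15 to 0.63 and a limma adjusted p of 0.446. The value depended on the controls: it was 0.52 without control 1 (adjusted p = 0.107) and 0.07 without control 9. Among high-dosed rats, numbers 8, 10 and 11 (8490 to 9621) and number 2 (9385) were at the lower end and numbers 3 to 6 at the upper.

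Cyp3a2 intensity was 167, 267, 205, 251, 244, 174, 189.5 and 199 in high-dosed rats 2, 3, 4, 5, 6, 8, 10 and 11, and 217, 130.4 and 135 in controls 1, 2 and 9. The groups overlapped through control 1: 8 of 8 high-dosed rats were above the control mean and 3 of 8 above all controls. The means were 212 ± 37.4 in high-dosed rats (SD, n = 8) and 161 ± 48.5 in controls (SD, n = 3). The log2 fold change was 0.32 ± 0.14 (SE), with a 95% interval from 0.02 to 0.62, and it did not pass over all genes (limma adjusted p = 0.171, unadjusted p = 0.0408). Without control 1 it was 0.50 (adjusted p = 0.0815). These signals were dim, so that the log2 scale with its added constant understates their change.

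Cyp3a18 varied most among the high-dosed rats, with a coefficient of variation of 47.8% there and 32.3% in controls. Its intensity was 882, 2323, 5386, 2854, 3021, 1632, 3017 and 2823 in high-dosed rats 2, 3, 4, 5, 6, 8, 10 and 11, and 2284, 1728 and 3279 in controls 1, 2 and 9. Of the high-dosed rats 1 was above all controls, 2 were below all controls and 5 lay within their range. The highest high-dosed value was 6.11 times the lowest, against 1.54 times for Cyp3a23-3a1 and 1.6 times for Cyp3a2. The log2 fold change was 0.07 ± 0.39 (SE), with a limma adjusted p of 0.935 and a 95% interval from -0.78 to 0.91. The interval reaches well to both sides of 0, so these arrays could not show the direction of any change. It turned negative without control 2 (-0.15) and without high-dosed 4 (-0.09).

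**Figure D2:**
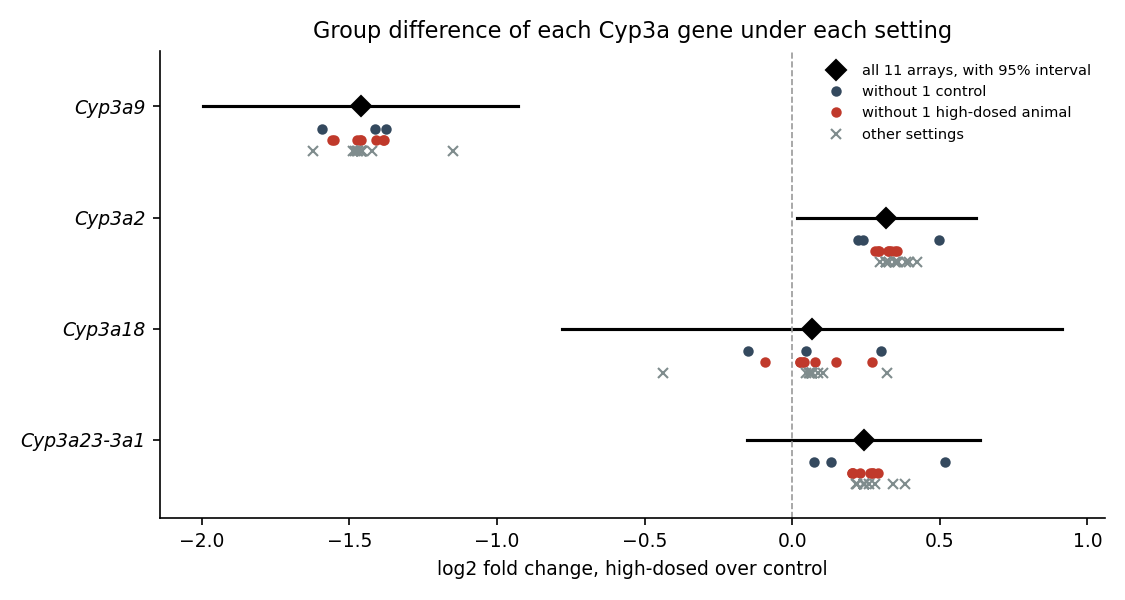
Log2 fold change, high-dosed over control (horizontal axis), of each Cyp3a gene with all 11 arrays and its 95% interval (diamond and line), with 1 array left out (dots) and under the other settings (crosses). Cyp3a9 stays between -1.62 and -1.15, and Cyp3a18 lies on both sides of 0.

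The response of Cyp3a9 differed from that of 2 other members. The test took, in each animal, the difference in log2 signal between 2 genes and compared it between groups in an exact permutation test, two-sided, with adjustment over the 6 pairs. Relative to Cyp3a2, Cyp3a9 was lower by a log2 difference of -1.78 in high-dosed rats against controls (exact p = 0.00606, the smallest these groups allow, adjusted p = 0.0182). Relative to Cyp3a23-3a1 the difference was -1.70 (exact p = 0.00606, adjusted p = 0.0182). In both pairs the 8 high-dosed rats lay below the 3 controls. Relative to Cyp3a18 it was -1.53 and did not pass (exact p = 0.0364, adjusted p = 0.0727). There high-dosed rat 2 stood at 2.80, level with the highest control, and the other 7 at -0.34 to 1.14, below all controls.

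When any 1 control was left out, 0 of the 6 pairs passed and 2 had an unadjusted exact p below 0.05, with a lowest adjusted p of 0.0667. Without high-dosed rats 8, 10 and 11, 0 passed and 2 had an unadjusted exact p below 0.05 (lowest adjusted p = 0.0536). Both pairs then stood at the smallest exact p these smaller groups allow, 0.0222 without 1 control and 0.0179 without the 3 rats, and 2 pairs at that p cannot pass adjustment over 6. These settings therefore say nothing about whether the calls hold. The log2 differences were -1.89 from Cyp3a2 and -1.87 from Cyp3a23-3a1 without the 3 rats, and -1.87 to -1.64 and -1.89 to -1.55 without 1 control. An exact p with the smaller tail doubled was computed first, and there the adjusted p of both called pairs was 0.0364 in place of 0.0182.

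Between Cyp3a2 and Cyp3a23-3a1, which lie side by side in the genome, no difference in response passed. Their within-animal log2 difference had an SD of 0.173 in high-dosed rats and 0.187 in controls. The SD of the log2 signal itself was 0.200 and 0.253 for the 2 genes in high-dosed rats, and 0.308 and 0.482 in controls. The group difference was 0.08 (exact p = 0.527, adjusted p = 0.72), and 0.18 with no added constant (adjusted p = 0.218 in the exact test). Cyp3a2 signals were dim, so the added constant reduces their spread and their group change. Whether either probe set also binds transcripts of the other gene was not tested. Control 1 was the highest control for both genes. The remaining pairs, Cyp3a2 with Cyp3a18 and Cyp3a18 with Cyp3a23-3a1, gave 0.25 and -0.17 (adjusted p = 0.72 and 0.721).

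**Figure D3:**
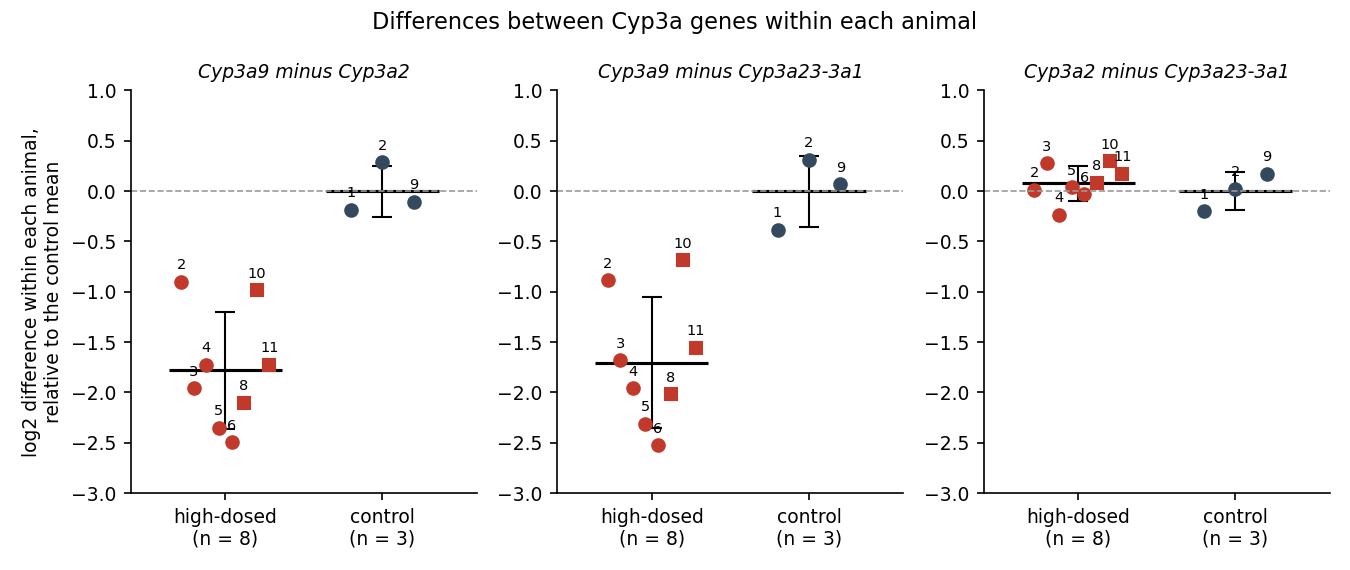
Difference in log2 signal between 2 Cyp3a genes within each rat, set to 0 at the control mean (vertical axis), with high-dosed rats left and controls right, means as lines, 1 SD as bars and squares for high-dosed rats 8, 10 and 11. Cyp3a9 falls relative to Cyp3a2 and Cyp3a23-3a1 in all 8 high-dosed rats, and the pair Cyp3a2 and Cyp3a23-3a1 stays near 0.

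Among 10616 other genes with a standard symbol, those whose log2 signal followed Cyp3a9 most closely over the 11 arrays were Fkbp4, Cluh and Lrp1. Fkbp4, an Hsp90-bound cochaperone of steroid receptors, had r = 0.960 over 11 arrays and r = 0.977 over the 8 high-dosed ones. Cluh, which binds mRNAs of mitochondrial proteins, had r = 0.954 and 0.891, and Lrp1, an endocytic receptor for lipoproteins, 0.944 and 0.844. All points share the arrays and the group difference, and the genes were picked for the height of r. Fkbp4 intensity was 1735 to 2260 in high-dosed rats (median 1984), against 3808, 3953 and 3197 in controls. It fell with a log2 fold change of -0.87 ± 0.09 (SE, limma adjusted p = 0.000313), and its groups did not overlap.

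**Figure D4:**
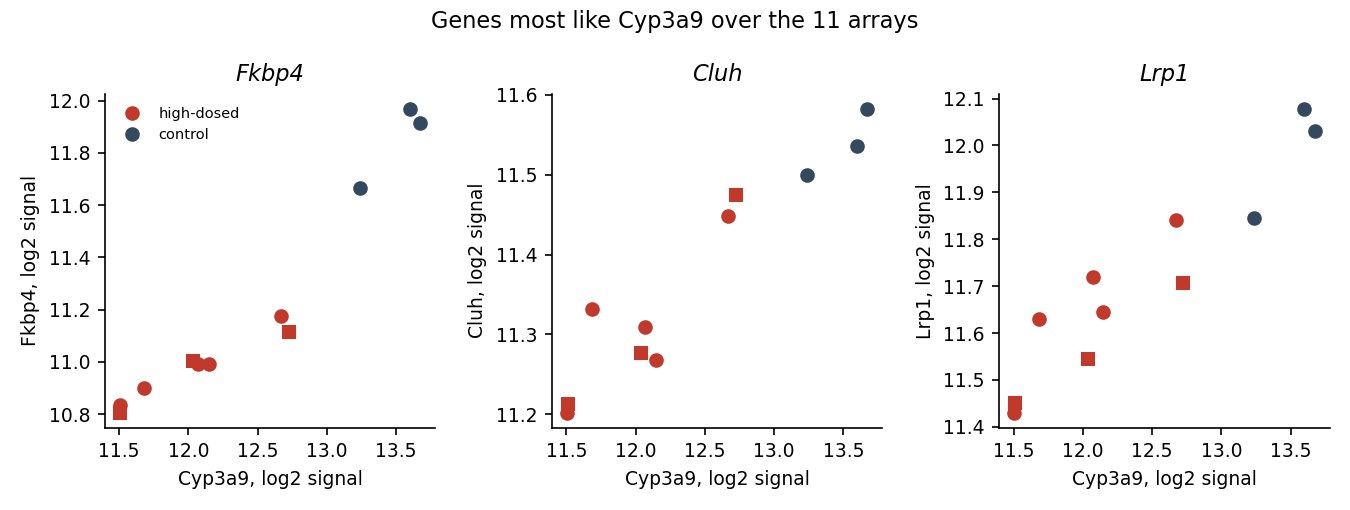
Log2 signal of Fkbp4, Cluh and Lrp1 (vertical axes) against log2 signal of Cyp3a9 (horizontal axes) in each of the 11 rats, high-dosed in red and control in dark blue, with squares for high-dosed rats 8, 10 and 11. In each panel the 3 controls lie at the upper right.

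Closest to Cyp3a2 were Akr7a3 (r = 0.904), Arv1 and C10h1orf35, closest to Cyp3a18 were Capza2 (r = 0.900), Rnf149 and Maob, and closest to Cyp3a23-3a1 were C7h22orf23 (r = 0.934), Kifap3 and Dnajc4. None of these 9 passed the test between groups.

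Of 15 tested receptors and factors known to control Cyp3a genes, 2 rose, 1 fell and 12 did not pass, with a median log2 fold change of 0.02 against 0.02 over all genes. Among all 10714 genes tested 7.91% rose and 2.74% fell. With single arrays left out 1 to 3 of the 15 rose. PXR (Nr1i2) had intensities of 1272 to 2146 in high-dosed rats, against 1541, 1274 and 1505 in controls, and a log2 fold change of 0.09 ± 0.12 (SE, limma adjusted p = 0.674). CAR (Nr1i3) had 574 to 1195 in high-dosed rats, against 625, 216 and 275 in controls. It rose with a log2 fold change of 1.08 ± 0.25 (SE, limma adjusted p = 0.0194), and this call was lost when control 2 was left out (0.81, adjusted p = 0.0937) or control 9 (0.95, adjusted p = 0.0778). The coactivator Ppargc1a rose by 0.99 ± 0.14 on the log2 scale (SE, limma adjusted p = 0.00183). Hsp90ab1, a chaperone of steroid receptors and CAR, had a log2 fold change of -0.24 ± 0.06 (SE) and fell (limma adjusted p = 0.0238), a call lost when control 1 was left out (adjusted p = 0.121) or control 2 (adjusted p = 0.0815).

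Of 17 other tested targets of PXR and CAR, 4 rose (Abcc2, Abcc3, Aldh1a1 and Ugt2b1), 0 fell (0 also at an unadjusted p below 0.05) and 13 did not pass, with a median log2 fold change of 0.26. The shares over all genes tested were 7.91% higher and 2.74% lower. The number of these targets that rose was 1 to 5 with single arrays left out. Without control 2 it was 1, since Abcc3 (adjusted p = 0.0908), Aldh1a1 (0.0616) and Ugt2b1 (0.101) lost the call. Abcc3 and Aldh1a1 lost it without control 9 too (0.0861 and 0.0593), and Ugt2b1 without control 1 (0.0624). The exporter Abcc2 rose by 0.48 ± 0.07 (SE, limma adjusted p = 0.00244), with 6410 to 8496 in high-dosed rats and 5320, 5421 and 5360 in controls. The cofactor systems of Cyp3a enzymes were read in 14 genes for electron supply and for heme synthesis or breakdown. Of these, 3 rose (Urod, Fech and Uros) and 11 did not pass. An unadjusted limma p below 0.05 was reached by 7 of the 14, of which 3 were lower. Without control 1, 1 of the 14 rose, since Fech (adjusted p = 0.132) and Uros (0.228) lost the call, and without control 9 likewise (0.0881 and 0.162). Over 23 alternatives Uros lost the call in 16 and Fech in 10, quantile normalization and median centring among them. Urod, an enzyme of heme synthesis, rose by 0.28 ± 0.05 (SE, limma adjusted p = 0.00586). Por itself had a log2 fold change of 0.31 ± 0.17 (SE, limma adjusted p = 0.281), and Alas1, the first enzyme of heme synthesis, 0.18 ± 0.13 (adjusted p = 0.441).

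Because Cyp3a9, Cyp3a2 and Cyp3a18 are sex-biased in rats, genes with such a bias were listed too. Their counts stand beside 7.91% higher and 2.74% lower over all genes tested. Of 9 tested female-predominant genes other than Cyp3a9, 1 rose, 3 fell (Lifr, Prlr and A1bg) and 5 did not pass, with a median of -0.19. The 1 that rose was Cyp17a1, a steroid hydroxylase, named here after its values were seen. It had 403 to 1970 in high-dosed rats, against 214, 151 and 164.8 in controls, and a log2 fold change of 1.74 ± 0.45 (SE, limma adjusted p = 0.0306). Its call was lost without control 1, 2 or 9 (adjusted p of 0.0982, 0.0943 and 0.0848). Lifr, the receptor of leukemia inhibitory factor, fell by 2.07 on the log2 scale (SE 0.35, limma adjusted p = 0.00427). Prlr, the prolactin receptor, fell by 0.49 (SE 0.10, adjusted p = 0.0109), a call lost without control 2 (adjusted p = 0.0544). A1bg lost its call without control 1 (adjusted p = 0.121) and control 2 (0.0911), so that 1 gene of the list fell without control 2. Of 7 tested male-predominant genes other than Cyp3a2 and Cyp3a18, 2 rose, 1 fell and 4 did not pass, with a median of -0.06. The 2 that rose, Hsd17b2 with a log2 fold change of 2.06 and Pbsn with 2.51 (limma adjusted p of 0.00117 and 0.0072), are of uncertain standing as male-predominant liver genes. Cyp2c22 fell, with -0.44 (adjusted p = 0.0334), a call lost without control 1 (0.164) and control 9 (0.13). Cyp2c12, the female-specific P450, had 17497 to 19303 in high-dosed rats and 17837 to 18507 in controls. Cyp2c11, the male-specific P450, had 180 to 347 in high-dosed rats and 216 to 306 in controls. Of 14 growth hormone and sex steroid signalling genes 3 fell (Prlr, Ghr and Igf1) and 11 did not pass. The changes of Ghr (-0.14) and Igf1 (-0.13) were small, and both lost the call without control 1 (adjusted p of 0.21 and 0.104) and without control 2 (0.173 and 0.0535). Each lost it in 17 of 23 alternatives, among them no filter, quantile normalization and median centring. The count of genes in this list that fell was 1 without control 1 and 0 without control 2.

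Markers of liver cell types were read beside the Cyp3a9 fall. Their counts stand beside 7.91% higher and 2.74% lower over all genes tested. Of 8 tested hepatocyte markers 1 rose and 1 fell, and their summed intensity was 149972 to 159395 in high-dosed rats and 151924 to 154412 in controls. Of 11 pericentral genes, the zone where most P450 enzymes are made, 1 rose and 0 fell, with sums of 83688 to 89812 in high-dosed rats and 80808 to 84826 in controls. Of 12 periportal genes 2 rose and 1 fell, with sums of 98717 to 107864 in high-dosed rats and 96484 to 100257 in controls. Cholangiocyte markers (2 of 3 tested rose, and Krt19, Krt7 and Cftr were under the filter) summed to 1253 to 2001 in high-dosed rats and 823 to 990 in controls. Endothelial markers (3 of 8 rose: Emcn, Pecam1 and Stab2) summed to 12015 to 13143 in high-dosed rats and 10457 to 11632 in controls. In neither list did the sums of the groups overlap. Of single genes tested, 12.1% did not overlap between groups. All sums here include measured markers under the filter, which the counts of tested markers leave out. The sums weigh the brightest probe sets most. In high-dosed rats Alb had 33648 to 34328, up to the highest value deposited, and Epcam had 665 to 1265. Sums that overlap between groups therefore do not show that the share of a cell type was unchanged. Without control 1, 1 endothelial marker rose, since Pecam1 (adjusted p = 0.0542) and Stab2 (0.182) lost the call, and 5 rose without control 2. Without any 1 control, 1 cholangiocyte marker, Epcam, rose. In the hepatocyte, pericentral and periportal lists the counts also moved with the controls: without control 1, 0 hepatocyte markers passed, and 1 periportal gene rose and 0 fell. Without control 2 or 9, 0 pericentral genes passed, and likewise with quantile normalization or median centring. Of 8 macrophage markers 0 passed in limma and 4 had an unadjusted p below 0.05, all higher, with sums of 24086 to 33751 in high-dosed rats and 17841 to 25056 in controls. Of 9 stellate and 5 intestinal markers 0 passed in limma, and 1 and 0 had an unadjusted p below 0.05. No listed marker stood at the lowest deposited value. The part of these markers in the Cyp3a9 result was not tested.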

How the data were processed

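Liver RNA of 11 rats was measured on 1 Affymetrix array each. The authors deposited 1 intensity per probe set on a linear scale, made with MAS5 per the submitters' processing notes; the scaling target and detection calls are not given in the sources used here. Intensities ran from 1 to 34328, with array medians of 149 to 186.6, and 0 pairs of arrays were identical. Arrays have no sequencing depth, and the 3 controls limit the precision. Nothing in the labels gives separate litters or batches. The p-values set the group difference against the spread between these animals. They take the animals as independent, which the labels cannot show.

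The deposited intensities were transformed as log2(intensity + 55.26), the constant being the 20th percentile of all values. Affymetrix controls (57 probe sets) were dropped, and so were dim probe sets, with a mean log2 signal below the 40th percentile (7.40). Symbols came from the platform annotation: 20832 probe sets had 1 symbol, 436 several and 9831 none. The brightest probe set with 1 symbol stood for a gene, which gave 10714 genes. Groups were compared with limma 3.58.1 in R 4.3.3, with a variance trend and Benjamini-Hochberg adjustment over all genes, at an adjusted p below 0.05; every adjusted p of a gene is from this fit. The script was tested on simulated data. Pairs of members were compared in an exact permutation test, two-sided (scipy 1.17.1), whose smallest p is 0.00606; 6 pairs were possible.

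The members and gene lists were chosen with earlier results of these data known. Genes named besides members were the 3 most correlated with each member, at most 3 called genes per list, and a few fixed ones. Some genes stand in more than 1 list, and the sex-biased lists follow general knowledge of rat liver. Alternatives were other constants, filters and scalings, no trend, a block or a split between animal numbers up to 6 and from 8, and each array left out.

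After results had been seen, 2 choices were changed. The exact p first doubled the smaller tail and now uses the absolute difference, the rule implied by the smallest p that had been planned; it makes the calls between pairs look more stable. Median centring was first done over all probe sets that are not controls and now over those tested. Both first versions are given as alternatives. Correlations between members were computed, none passed adjustment, and they were dropped because the high-dosed rats fall into 2 sets on the arrays.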

Additional observations from a re-analysis of the deposited data

Results flagged for a closer look

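In the difference between Cyp3a9 and Cyp3a18 within each animal, high-dosed rat 2 stood far from the other 7 high-dosed rats. Its log2 difference was 2.80 and the next highest was 1.14, and this gap made up 0.528 of the range of the 8 rats, just above Dixon's critical value for 8 samples. In that rat Cyp3a18 was the lowest of the 8 (intensity 882) and Cyp3a9 the second highest (6465). Among 10 quantities examined this was the 1 so marked, and chance marks about 1 group in 20. The cause was not tested.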

How the results depend on the processing

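Cyp3a9 stayed lower under all 23 alternatives (log2 fold change -1.62 to -1.15) and passed in 22; the exception was the comparison within animal numbers 8 and above (-1.15, adjusted p = 0.169), which has 1 control, assumed to vary like the other rats, and was added after seeing the data. With arrays left out one at a time it was -1.59 to -1.38. Cyp3a2 (0.22 to 0.50, 22 alternatives) and Cyp3a23-3a1 (0.07 to 0.52, 23 alternatives) kept their sign and never passed; Cyp3a2 fell under a filter at the 60th percentile. Cyp3a18 reversed within numbers 8 and above (-0.44), without control 2 (-0.15) and without high-dosed 4 (-0.09), and ran from -0.15 to 0.30 with single arrays left out. The 1141 genes called became 730 with median centring (472 higher and 258 lower, against 847 and 294), 852 with the first version of that centring (705 and 147), 922 with quantile normalization (589 and 333), 1521 with animal number as a block (1083 and 438), 608 within numbers 6 and below, 712 without high-dosed 8, 10 and 11, 1 within numbers 8 and above, and 323 to 1408 with single arrays left out, lowest without control 1. The 1288 probe sets called became 1955 with animal number as a block, 753, 851 and 12 in the same 3 splits, and 321 to 1688 with single arrays left out. Of the 6 differences between members 2 passed; 0 passed without high-dosed 8, 10 and 11, and 0 to 3 with single arrays left out, 0 of them without control 1, 2 or 9; in these settings with 0 the smallest possible p is too high for 2 pairs to pass. Over 16 alternatives 0 pairs passed in 4 under the exact p reported and in 11 with the smaller tail doubled, the rule used first. Some differences that did not pass changed sign with single arrays left out. Without control 9 these were Cyp3a2 minus Cyp3a18 (-0.0633) and Cyp3a18 minus Cyp3a23-3a1 (0.23). The latter also changed sign without high-dosed 2 (0.00157), and Cyp3a2 minus Cyp3a23-3a1 without control 1 (-0.0214). With single arrays left out their ranges were, in that order, -0.06 to 0.45, -0.47 to 0.23 and -0.02 to 0.16. With no added constant Cyp3a2 minus Cyp3a23-3a1 was 0.18. Within numbers 8 and above Nr1i2 (-0.046) and Hal (0.0228) changed sign. No member had a second probe set to try. No paired analysis was possible because each rat stood in 1 group and the labels name no pairs.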

Other observations

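Control 1 was the highest control for Cyp3a2 and Cyp3a23-3a1, and likewise for 13 of the 17 other tested targets of PXR and CAR. It was the highest control for 27.7% of all 10714 genes tested (2965) and for 5 of the 15 receptors and factors known to control Cyp3a genes. This was noticed after the values were seen and was not tested. Among the examples, Nr1i3 intensity was 625 in control 1, against 216 and 275 in controls 2 and 9. Abcc3, an exporter of conjugates, had 672 to 1017 in high-dosed rats, and 807 in control 1 against 213 and 233 in the other controls. Aldh1a1, a retinal dehydrogenase, had 5615 to 7792 in high-dosed rats, and 5904 in control 1 against 3121 and 3292 in the other controls.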
